A study of Mus musculus with 5 samples.

Results

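Stretches of the mouse genome in which sequence reads of Foxa1 chromatin immunoprecipitation (ChIP-Seq) libraries were dense, but in which reads of both strands lay over each other instead of side by side, were examined in adult liver. Reads of 5 libraries were pooled after each position and strand had been counted once per library, and each 5′ end was moved 50 bp towards the centre of its fragment. Bins of 200 bp on the 19 autosomes that held 12 or more reads, with reads on both strands, were called dense. A dense bin was kept where the median 5′ end of minus-strand reads lay less than 40 bp beyond that of plus-strand reads, within the bin and 150 bp on each side of it, a distance called here the strand offset. Touching bins were merged. This gave 709 low-offset stretches made of 1151 bins, out of 2635 stretches made of all 3455 dense bins. The other 2304 dense bins, called offset bins, merged into 2196 stretches and served for comparison.

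All libraries came from the livers of wild-type male CD1 outbred mice aged 2 to 3 months, with 100 mg of snap-frozen tissue and the same Foxa1-specific antiserum, and their DNA was selected for a length near 200 bp and amplified over 18 PCR cycles. The 5 libraries form 1 group, described as biological replicates, and neither input DNA nor any other control library was analysed here. The track names inside the files give replicates 3 and 4 the same label, WT4, with a further mark in 1 of the names. Those of replicates 1, 2 and 5 differ. Whether this label names an animal is not known here. Outside dense bins replicates 3 and 4 shared 0.137% of the positions of the smaller library, within the 0.0952% to 0.177% of all 10 pairs, so they did not behave as copies of 1 library. Replicates 1 to 5 held 3023778, 4146819, 4316856, 4600497 and 1428894 distinct autosomal reads, and distinct reads were 85.0% to 93.1% of the reads in replicates 1 to 3, 57.6% in replicate 4 and 21.1% in replicate 5. ChIP reads carry no expression levels, so the tissue label could not be checked against marker transcripts, and whole liver contains several cell types.

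Foxa1 is a winged-helix transcription factor of the forkhead family that binds DNA in compacted chromatin and helps to activate hepatocyte genes. At a point-like binding site the precipitated fragments span the bound base, so plus-strand reads begin on one side of it and minus-strand reads on the other, and the distance between both groups follows the fragment length. Read pile-ups that lack this displacement are found in many ChIP-Seq data sets, often in satellite and other repeated DNA that an assembly holds in too few copies. Mouse chromosomes have their centromere at one end, where base numbering starts, next to large arrays of satellite DNA.

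The low-offset stretches were few and small but held far more reads than their length. Dense bins were 0.0418% of the 8256236 autosomal bins with a read, and 33.3% of the dense bins had an offset below 40 bp (exact binomial 95% interval 31.7% to 34.9%, which covers counting error only). The 709 stretches covered 230200 bp, or 0.00957% of the autosomes, and held 62265 of the 17516844 distinct reads, or 0.355%. The autosomal mean was 1.46 reads per 200 bp, whereas a low-offset bin held a median of 21 reads and at most 805. Offset bins held a median of 15 and at most 513 reads. Counts and offsets chose these bins, so their values are given as a description with no test.

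Low offsets became more frequent as bins became denser. Of the 2317 dense bins with 12 to 19 reads, 547 were low-offset bins (23.6%), and of the 138 bins with 100 or more reads, 123 were (89.1%). The median offset was 19 bp in low-offset bins, with a range from -306 to 39.5 bp, and 80.5 bp in offset bins. It was below 0 in 379 low-offset bins and between 20 and 39.5 bp in 567 (49.3%). Bins on both sides of the limits held similar numbers of reads: 75 bins with offsets of 36 to 39.5 bp held a median of 18 reads, and 92 bins with offsets of 40 to 43.5 bp held 17. Among bins with 11 reads, which the rule left out, 219 of 934 had a low offset (23.4%), next to 140 of 581 bins with 12 reads (24.1%).

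Most stretches were a single bin, and a small number held most of the reads. There were 511 stretches of 1 bin, 99 of 2 bins and 99 of 3 or more. By reads, 381 stretches held 12 to 19, 139 held 20 to 49 and 189 held 50 or more. The last class held 84.8% of all reads in low-offset stretches, and the 10 stretches with the most reads held 30.7%. Of the pooled reads 50.9% were on the plus strand, and single stretches had a median of 50% with a range from 5.26% to 97.6%.

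The distance between read ends on opposite strands had a sharp and repeated value in the low-offset bins. For every plus-strand read end, the distances to all minus-strand ends of the same library were counted in bins with 50 or more, 20 to 49 and 12 to 19 reads. Pairs were most frequent at 31, 31 and 32 bp in these classes after a running mean over 11 bp, and at 30 to 33 bp in each of the 5 libraries. In 1899 offset bins that lay over 10 kb from any low-offset bin, the maximum was at 77 bp in the pooled libraries. Single libraries had their maxima there at 30, 109, 35, 82 and 76 bp, so replicates 1 and 3 peaked near the distance of the low-offset bins. A distance of 31 bp means that the first 32 bases of the facing reads, each 36 nt long, covered the same stretch of DNA. The source of this distance was not tested, and since distances between the strands chose the bins, these values are a description.

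**Figure D1:**
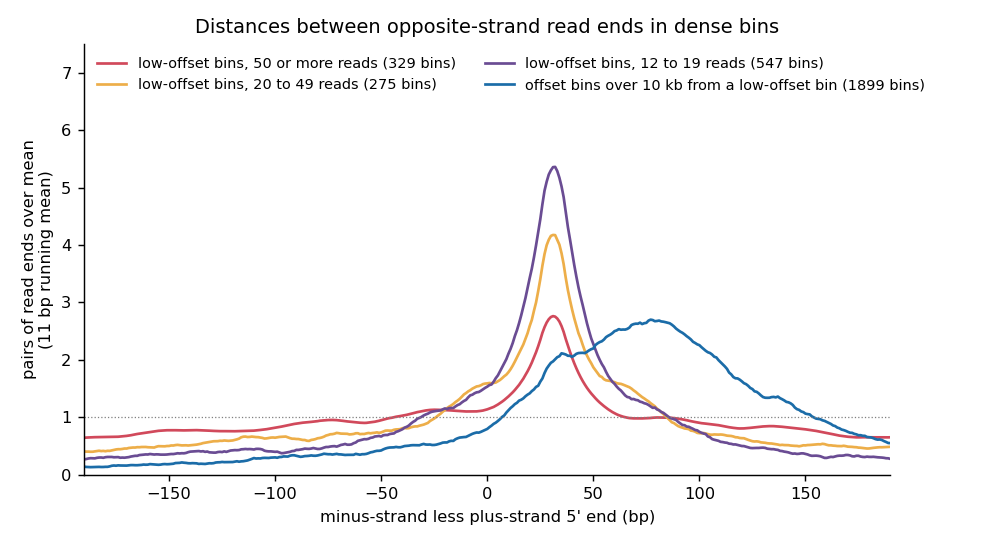
Distance from plus-strand to minus-strand 5′ ends of the same library (x axis, bp) against the number of pairs over the mean of all distances shown (y axis, running mean over 11 bp), for 3 classes of low-offset bins by pooled reads and for offset bins over 10 kb from them. The 3 low-offset classes share a narrow maximum at 31 to 32 bp, and the offset bins have a broad maximum at 77 bp with a shoulder near the low-offset maximum.

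Whether the low offset was a stable property of these places was asked with reads that had not chosen them. Each library was left out in turn, bins were chosen by the same rule from the other 4 with the minimum scaled to their depth (9 to 12 reads), and the left-out library was measured in the bins where it had a read on each strand. These were 657 of 977 to 955 of 1146 low-offset bins and 1112 of 3008 to 1779 of 2361 offset bins. Low-offset bins chosen in this way had median offsets of 27, 27, 26, 29 and 31.5 bp in held-out replicates 1 to 5, or 28.1 ± 2.19 bp (SD, n = 5). Offset bins had 64, 88.3, 42, 66.5 and 69 bp, or 66.0 ± 16.5 bp (SD, n = 5). The values of both classes did not overlap, and the offset bins exceeded the low-offset bins in 5 of 5 libraries by 37.9 ± 16.02 bp. An exact sign-flip permutation test over the libraries gave a two-sided p = 0.0625, and the Benjamini-Hochberg value over the 6 tests made here was 0.075. With 5 libraries no two-sided p below 0.0625 is possible, so none of these tests could reach 0.05. The tests and SDs count 5 independent libraries. If replicates 3 and 4, which share a track label, came from 1 animal, there would be 4 animals and the smallest p would be 0.125.

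The densest offset bins had median offsets below the limit of 40 bp in the held-out library. Their offsets in the libraries that chose them are not given, so the size of the change is not known here. Offset bins with 50 or more reads in the other 4 libraries, 42 to 81 per round, had held-out offsets of 34.95 ± 2.79 bp (SD, n = 5), with no library above 39 bp. Low-offset bins of the same density had 27.4 ± 1.56 bp. At 20 to 49 reads offset bins had 68.7 ± 8.07 bp, from 57.5 to 79.75 bp, and low-offset bins had 21 to 32.75 bp over the 5 libraries. At under 20 reads the values were 66.9 ± 18.5 bp and 31.4 ± 4.197 bp, and the offset bins of this class were at 39 bp in held-out replicate 3, below the limit of 40 bp. These values by density were not tested.

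Read density in the held-out library was above the flanks in both classes, and which class was the denser depended on the setting. Over flanks of 5 kb on each side at a distance of 1 kb, low-offset stretches held 5.03, 4.47, 4.64, 4.26 and 5.19 times the reads per bp in replicates 1 to 5, or 4.72 ± 0.388 (SD, n = 5). Offset bins held 3.39, 3.53, 2.23, 4.37 and 8.82 times, or 4.47 ± 2.55 (SD, n = 5). The libraries ranged 1.22-fold for low-offset stretches and 3.96-fold for offset bins. These folds divide reads summed over all stretches by reads summed over all flanks, so the densest stretches weigh most. In the pooled reads that chose them, single low-offset stretches had a median fold over flanks of 6.07, and offset stretches 8.43. Each class lay above its flanks in 5 of 5 libraries (exact sign-flip permutation test, two-sided p = 0.0625, adjusted 0.075), with mean log2 folds of 2.23 ± 0.119 and 2.00 ± 0.728. Low-offset stretches exceeded offset bins in 3 of 5 libraries, with a mean log2 difference of 0.23 ± 0.685 (SD) and an exact two-sided p = 0.5 (adjusted 0.5). That difference changed sign in 3 settings, to a mean log2 of -0.94 with an offset limit of 20 bp (exact p = 0.0625), of -0.52 against offset bins over 10 kb from a low-offset bin and of -0.16 without the 10 stretches with the most reads. Against the autosomal mean in place of flanks it was 1.73 and positive at the smallest p the test allows, 0.0625.

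**Figure D2:**
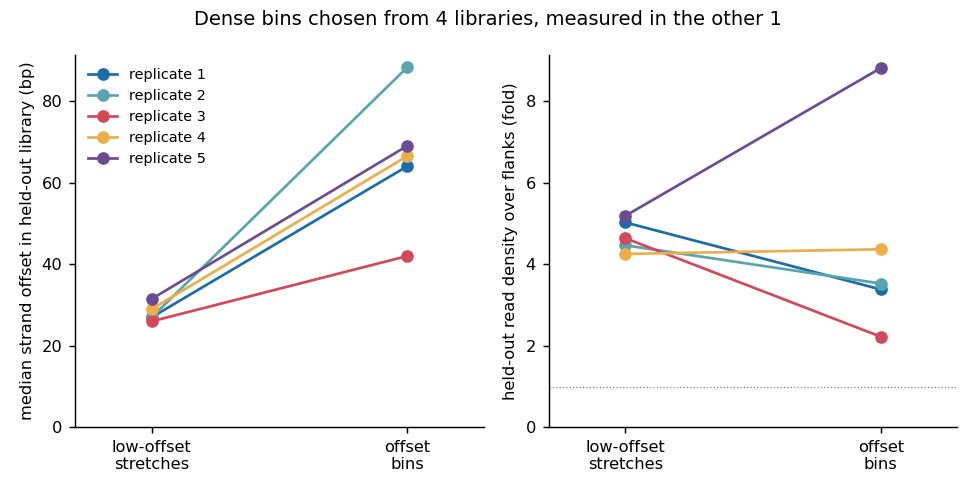
Median strand offset (left, bp) and read density over flanks (right, fold) in each of the 5 libraries, at low-offset stretches and offset bins chosen without that library. Points of 1 library are joined, and the dotted line marks equal density. All 5 offsets are lower at low-offset stretches (26 to 31.5 bp against 42 to 88.3 bp), and the densities cross, with replicate 5 highest at 8.82-fold in offset bins.

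The flanks of the densest bins of both classes were themselves rich in reads. Flanks were not cleared of other dense bins. Low-offset stretches chosen with 50 or more reads in the other 4 libraries reached 113 ± 10.4 times the autosomal mean density in the held-out library (SD, n = 5) but 4.66 ± 0.224 times their flanks, and offset bins of that density reached 71.0 ± 13.1 and 2.78 ± 0.181 times. Low-offset stretches with 20 to 49 reads reached 29.1 ± 7.51 times the autosomal mean and 1.64 ± 0.0837 times their flanks. Offset bins with 20 to 49 reads reached 23.1 ± 12.4 and 3.82 ± 3.05 times, with replicate 5 highest at 41.9 and 9.18 times. Low-offset stretches chosen with under 20 reads reached 8.76 ± 2.10 times the autosomal mean and 2.28 ± 0.339 times their flanks. Replicate 3 was highest at 11.9 and 2.78 times, and the chromosome 8 stretch described below was not left out. Offset bins with under 20 reads reached 9.94 ± 9.13 and 5.58 ± 4.11 times. Replicate 5 raised these 2 means, with 25.8 and 12.5 times against 3.13 to 9.18 and 2.05 to 5.72 in the other libraries. Among single stretches, 319 of 709 (44.99%) had a higher density than their flanks in all 5 libraries, next to 979 of 2196 offset stretches (44.6%) and a background of 46.4% of all dense stretches. A share this close to the background is no result about the low-offset stretches. A further 243 stretches exceeded their flanks in 4 libraries, 81 in 3 and 66 in 2 or fewer.

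Summed over reads, which lay mostly in the densest stretches, the libraries contributed to the low-offset stretches nearly in proportion to their depth. The stretches took 0.353%, 0.358%, 0.391%, 0.302% and 0.419% of the distinct reads of replicates 1 to 5, a 1.39-fold range. Offset bins took 0.185%, 0.241%, 0.139%, 0.313% and 0.639%, a 4.59-fold range with replicate 5 highest and replicate 3 lowest. The share of replicate 3 among the reads of low-offset stretches was 1.10 times its share of all autosomal reads. Without a single stretch on chromosome 8 that is described below it was 1.005 times, and the ratios of replicates 1, 2, 4 and 5 moved from 0.994, 1.01, 0.849 and 1.18 to 1.02, 1.04, 0.877 and 1.22. In the 381 stretches with 12 to 19 reads replicate 5 supplied 13.8% of the reads, 1.70 times its share of all autosomal reads, and in offset stretches with so few reads it supplied 23.4%. Reads of all 5 libraries were present in 443 stretches (62.5%), against 49.1% of offset stretches and 50.2% of all dense stretches. These shares depend on the number of reads and were not compared at equal density. Only 12 to 19 reads were held by 381 of 709 low-offset and 1631 of 2196 offset stretches. In 125 stretches (17.6%) 1 library supplied 50% or more of the reads, against 23.9% of offset stretches and 24.0% of all dense stretches. Of the 125, 111 had 12 to 19 reads, where the shares were 29.1% of low-offset and 28.7% of offset stretches.

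Reads of different libraries began at the same bases. Of 40537 strand-specific positions used in low-offset bins, 24.5% were used by 2 or more libraries, against 5.36% in offset bins, 3.49% in offset bins over 10 kb from a low-offset bin and 0.273% on all autosomes. On all autosomes 2504 positions were used by all 5 libraries, and 2252 of them were in low-offset bins. Bins with 50 or more reads supplied 2237 of these. At 12 to 19 reads 5.09% of positions in low-offset bins and 2.30% in offset bins were used by 2 or more libraries. Positions fill up as density rises, and the libraries contribute differently to both classes, so these shares are descriptions.

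The number of reads stacked on 1 position was not used to choose the stretches. It was 6.49, 5.97, 6.33, 6.92 and 10.6 reads per position in low-offset bins of replicates 1 to 5, next to 1.16, 1.14, 1.05, 1.72 and 4.72 outside dense bins. Offset bins had 1.89, 1.62, 1.66, 1.88 and 4.99. The low-offset bins exceeded the rest of the autosomes in 5 of 5 libraries by a mean log2 ratio of 2.13 ± 0.579 (SD, n = 5), and the offset bins by 1.71 ± 0.352, each with an exact two-sided sign-flip p = 0.0625 (adjusted 0.075). With an offset limit of 20 bp the log2 ratio to offset bins fell to 0.42. The smallest log2 ratios, 1.17 and 1.09, were those of replicate 5, in which positions were stacked throughout the genome. The classes also differ in density. In held-out replicates 1 to 5, offset bins with 50 or more reads had 5.39, 4.79, 3.28, 2.81 and 5.08 reads per position. Low-offset bins of that density had 8.53, 9.33, 8.32, 10.5 and 12.8. At under 20 reads low-offset bins had 1.25, 1.22, 5.22, 1.74 and 4.77, and offset bins 1.13, 1.15, 2.87, 1.79 and 5.02. At chr8:124013801-124015000, described below, replicate 3 held 1957 distinct reads and replicates 1, 2, 4 and 5 held 63, 11, 5 and 2. Its bins could thus count as sparse when replicate 3 was held out. The values of replicate 3 without that stretch were not computed. These values by density were not tested.

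This stacking belonged to a small number of stretches. With the reads per position of each stretch set over the level outside dense bins, weighted by its libraries, the median of the 709 stretches was 1.02, and 649 stretches (91.5%) were below 1.5. Another 34 lay between 1.5 and 3, and 26 reached 3 or more, which held 21556 of the 62265 distinct reads. Among the 381 stretches with 12 to 19 reads the median was 1.01 and none reached 3. Even among the 189 stretches with 50 or more reads the median was 1.04, and 142 of them (75.1%) were below 1.5. The highest value, 47.8, was that of chr14:39187401-39187800 with 815 distinct reads. The bounds of 1.5 and 3 were chosen after the values were seen.

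**Figure D3:**
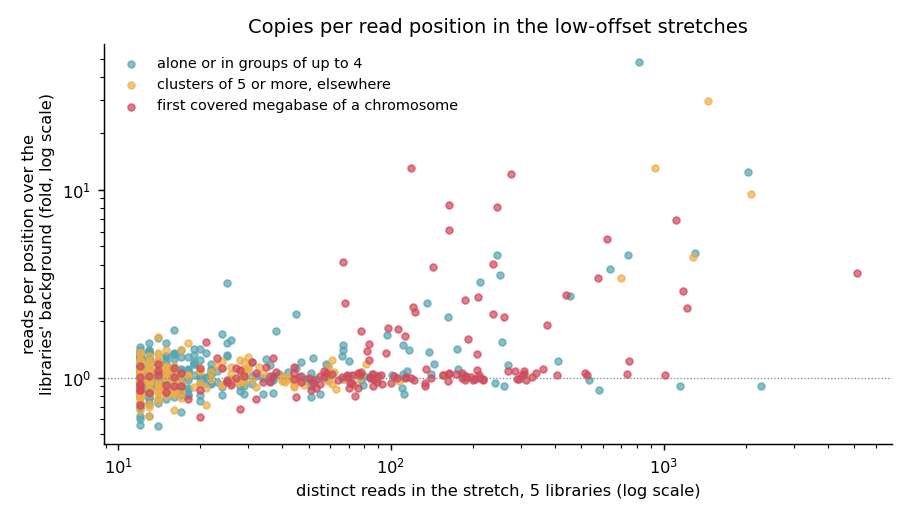
Distinct reads of each of the 709 low-offset stretches (x axis, log scale) against its reads per position over the level of the same libraries outside dense bins (y axis, log scale), coloured by place on the chromosome. Most points lie along the dotted line at 1 over the whole range of reads (median 1.02), and 26 stretches lie at 3 or more, up to 47.8.

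Low-offset stretches were gathered at the starts of chromosomes and in a small number of clusters. In the first covered megabase of a chromosome lay 162 stretches (22.8%), with 48.2% of the reads, against 124 offset stretches (5.65%) and 0.686% of all autosomal bins with a read. Within 50 kb of a run of 10 kb or more without any read lay 161 stretches (22.7%), against 117 offset stretches (5.33%) and 1.4% of all bins with a read. Outside the first megabase these shares were 62 of 547 stretches (11.3%) and 3.33% of offset stretches. When stretches at most 50 kb apart were joined, 332 (46.8%) fell into 24 clusters of 5 or more, against 256 offset stretches (11.7%). A further 84 were in groups of 2 to 4, and 293 had no other within 50 kb and held a median of 15 reads. The repeat content of these places was not analysed here, and its part in these values was not tested.

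Windows of 1 Mb with many stretches were rare. Of 313 windows with a stretch, 247 had 1. The fullest was the start of chromosome 11, where 88 stretches with 13807 reads lay in chr11:3000201-3100000. It was followed by the window at 90 Mb of chromosome 1 with 36 stretches and 652 reads, the start of chromosome 9 with 34 and 8328 reads, the window at 37 Mb of chromosome 7 with 27 and 1022 reads, and that at 77 Mb of chromosome 2 with 16 and 210 reads. Chromosomes 1, 6, 7, 14, 15 and 19 had no stretch in their first covered megabase. By number of stretches, the gathering at chromosome starts was carried by chromosomes 11, 9, 3, 4 and 18 with 88, 34, 11, 10 and 8. By reads, the single stretch at the start of chromosome 5 held 5100, against 1278 in the 10 stretches at the start of chromosome 4.

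The starts of chromosomes 9 and 11 differed in how reads were stacked. Of 71 stretches with 50 or more reads at the start of chromosome 11, 69 were below 1.5 times the library level of reads per position, with a median of 1.01. On chromosome 9, 3 of 27 such stretches were below 1.5, and the median was 2.60. The widest stretch of all, chr11:3055601-3058600 with 3000 bp, held 146, 305, 252, 261 and 49 distinct reads in replicates 1 to 5, or 38.7, 59.0, 46.8, 45.5 and 27.5 times the autosomal mean. Its neighbour chr11:3052201-3054600 with 2400 bp, a width shared with a stretch on chromosome 17, was 24.5 to 57.0 times the mean. Both lay among the 88 stretches of this cluster and were 1.11 and 1.04 times as dense as their flanks in the pooled reads. Those flanks held other low-offset stretches. In the 28000 bp outside dense bins, density was 1.51, 2.15, 2.23, 1.42 and 1.68 times the autosomal mean in replicates 1 to 5.

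The stretch with the most reads, chr5:3000001-3002600, was at the first covered base of chromosome 5 and was also the second widest. It held 1107, 1172, 1196, 1070 and 555 distinct reads in replicates 1 to 5, or 339, 261, 256, 215 and 359 times the autosomal mean. Its density was high in all libraries and was 409 times that of its flank. Of 1689 positions used there, 43.0% were used by 4 or 5 libraries.

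On chromosome 2 a cluster of 5 stretches in chr2:98463001-98468200 held 6471 reads in 5.2 kb, and 3 of the stretches were among the 10 with the most reads. The first, chr2:98463001-98463800, held 450, 466, 445, 421 and 310 distinct reads. At chr2:98467601-98468200 the numbers were 302, 304, 302, 290 and 260, or 400, 294, 280, 253 and 729 times the autosomal mean. A position was counted once per library, so distinct reads leave out the stacked copies and do not measure the signal of a library. Whether the number of usable positions limited them was not tested. There 324 of 1200 possible positions were used at all, 88.6% of the used positions occurred in 4 or 5 libraries, and 1 position of 1 library held 1541 copies. Reads per position were 29.7 times the library level in that stretch. The third, chr2:98464401-98465000, held 287, 293, 307, 266 and 133 reads, and 43.8% of its positions occurred in 4 or 5 libraries.

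On chromosome 9 a lone stretch, chr9:35054801-35055400, held 288, 280, 286, 270 and 178 distinct reads in replicates 1 to 5. As on chromosome 2, 308 of 1200 positions were used and 80.8% of these occurred in 4 or 5 libraries. At the start of the chromosome chr9:3026201-3027800 held 286, 290, 284, 252 and 105 reads and chr9:3000001-3001400 held 270, 280, 269, 234 and 126. These were 82.3 to 142 times and 87.4 to 153 times the autosomal mean, with all libraries high.

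A pair of stretches on chromosome 17 was of another kind. At chr17:39452401-39454800 replicates 1 to 5 held 162, 565, 651, 605 and 290 distinct reads, and at chr17:39451001-39452200 they held 71, 262, 283, 368 and 161. Replicate 1 was the lowest over the autosomal mean in both, at 53.7 and 47.1 times, against 132 to 203 times and 127 to 226 times in the other libraries. Only 7 of 1780 positions in the first and 1 of 909 in the second were used by 4 or 5 libraries. Reads per position were 0.900 and 0.909 times the library level, next to a median of 1.04 over all 189 stretches with 50 or more reads. The rest of the group, chr17:39455001-39456000 and chr17:39456201-39457000, held 531 and 579 distinct reads at 0.973 and 0.863 times the library level.

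The stretch chr8:124013801-124015000 belonged to 1 library. Replicate 3 held 1957 of its 2038 distinct reads (96.0%), and replicates 1, 2, 4 and 5 held 63, 11, 5 and 2. Relative to the autosomal mean these were 909 times in replicate 3, 41.8 in replicate 1, and 5.32, 2.18 and 2.81 in replicates 2, 4 and 5. In replicate 3 reads began at 81.5% of the 2400 possible positions, against 2.63% or less in any other library, and no position occurred in 4 or more libraries. The offset of its bins was 1 to 14.5 bp, and the pooled reads were 13.2 per position. Replicate 3 reached 400 distinct reads in a 200 bp bin. A position counts once per strand and library, so nearly full bins limit the density and bring the strand medians together. The low offset and the density of this stretch thus follow in part from the counting. Replicate 4, which carries the same track label as replicate 3, was among the lowest.

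**Figure D4:**
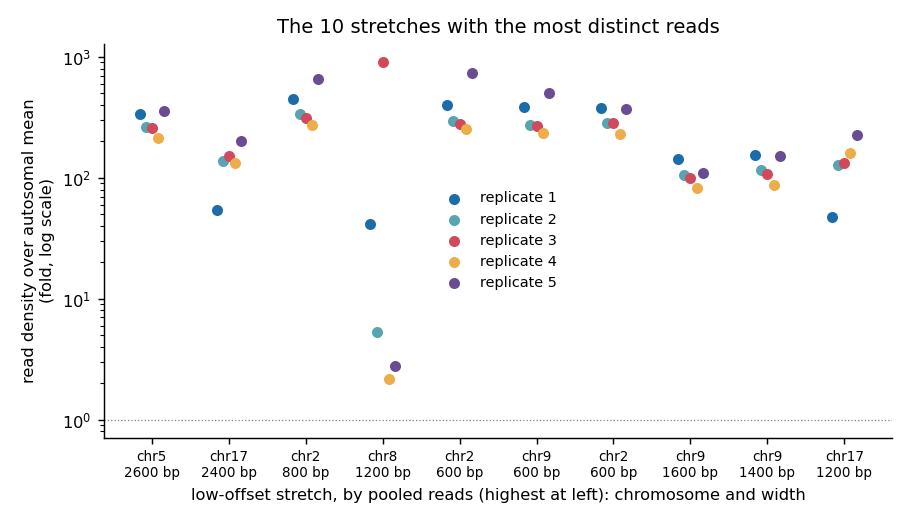
Read density over the autosomal mean (y axis, fold, log scale) in each of 5 libraries at the 10 low-offset stretches with the most distinct reads, ordered by reads and named by chromosome and width. Libraries differ in every stretch, replicate 1 is lowest in both chromosome 17 stretches, and the chromosome 8 stretch spans from 2.18 to 909 times the mean with replicate 3 highest.

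Smaller stretches could also rest on 1 library. The stretch chr2:77765801-77766000 had 12 reads, all of replicate 3, and chr5:145488801-145489000 had 49 reads of replicate 4 and 4 of replicate 5. With chr8:124013801-124015000 these had the highest shares of 1 library.

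The cluster of 16 stretches in chr2:77671001-77797400 lay inside a wider interval that was raised in some libraries. Each of its stretches was modest, with a median of 12.5 reads. Replicates 3 and 5 held 126 and 40 of their 210 reads. In the 119000 bp between them, where no bin was dense, read density was 1.20, 0.892, 8.29, 0.971 and 9.28 times the autosomal mean in replicates 1 to 5. In windows of 25 kb the raised interval ran over chr2:77650001-77850000. Its bounds are those of the windows raised in replicates 3 and 5, so the folds in it are a description. The Poisson intervals do not allow for that choice. In it replicates 3 and 5 held 6.86 times (95% Poisson interval 6.59 to 7.13) and 7.36 times (6.88 to 7.86) the mean. Replicates 1, 2 and 4 held 1.23 (1.10 to 1.38), 1.01 (0.903 to 1.12) and 1.08 times (0.976 to 1.19). In 12 windows outside the interval the libraries held 0.929 to 1.10 times the mean, with replicates 3 and 5 at 0.929 and 0.959. Replicates 3 and 5 thus lay far above the other 3 libraries, of which replicate 1 was slightly above the autosomal mean. Replicates 3 and 4 differed although they share a track label.

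**Figure D5:**
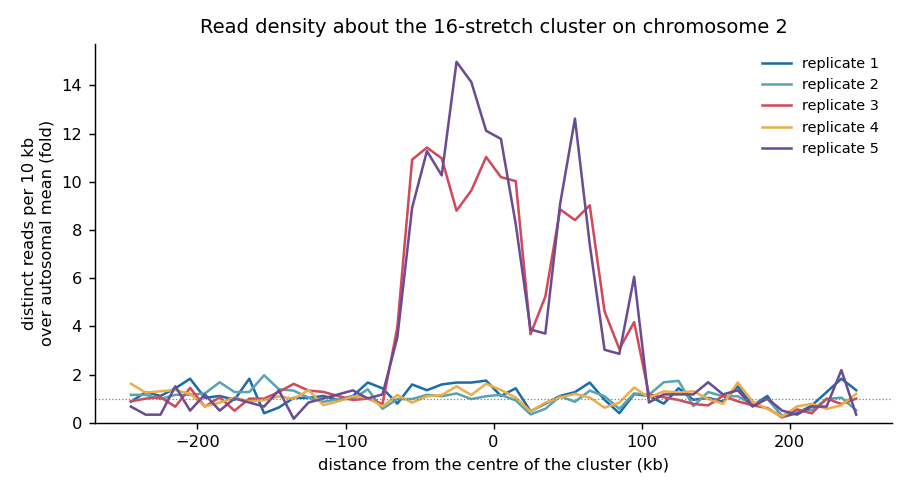
Distinct reads per 10 kb over the autosomal mean (y axis, fold) against distance from the centre of the cluster of 16 low-offset stretches on chromosome 2 (x axis, kb), 1 line per library. Replicates 3 and 5 rise together over about the same interval, at 6.86-fold and 7.36-fold over the whole 200 kb. Single windows of 25 kb in it ran from 2.21 to 11.5 and from 2.49 to 13.6. Replicates 1, 2 and 4 stay near 1.

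Density between the stretches of a cluster was above the autosomal mean in all 5 libraries in 16 of the 24 clusters, in 4 libraries in 3, in 3 libraries in 4 and in 2 libraries in 1. Of all autosomal windows of 25 kb with a read, which differ in length from these intervals, 10.6% were above the mean in all 5 libraries. The last was chr2:181847001-181860800, with 5 stretches and 0.631 to 1.60 times the mean. At chr1:90043601-90132400, with 35 stretches, density between the stretches was 4.33, 3.92, 6.67, 3.73 and 5.18 times the autosomal mean, and at chr13:12783401-12839400, with 10, it was 3.48, 2.79, 2.93, 3.16 and 3.43 times. At chr7:37885001-37910400, with 27 stretches, it was 6.09, 3.02, 3.41 and 3.41 times in replicates 1 to 4 and 0.344 times in replicate 5, over 9800 bp.

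The regulatory elements that the study lists near genes linked to diabetes were compared with both classes of dense bins. Of 33 distinct intervals, none touched a low-offset stretch and 16 touched an offset bin. Low-offset stretches cover 0.00957% of the autosomes, so the absence of an overlap says nothing about these intervals. Strand offsets over the intervals and 150 bp on each side had a median of 76 bp, from -50.5 to 231 bp, and 3 were below 40 bp. The study lists the intervals as bound by both Foxa1 and its relative Foxa2, and these Foxa1 reads took part in calling them, so the values are a description.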

How the data were processed

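Foxa1 ChIP DNA of 5 libraries was analysed as 1 group. The authors deposited 1 list of aligned reads per library, with positions, strand and a score column that is 0 throughout and was not used; 36 nt reads had been aligned to mm8 (NCBI Build 36) with ELAND, and reads with a unique best alignment kept. No read had been removed as a copy. Starts were read as counted from 0. A trailing character in the chromosome names of replicate 1 was removed. No genome or annotation of mm8 was used here, so stretches carry no gene names or sequences.

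Python 3.11.15, NumPy 2.4.6, SciPy 1.17.1, pandas 2.3.3 and Matplotlib 3.10.9 were used. Comparisons between libraries used exact sign-flip permutation tests (two-sided, 32 sign patterns, Benjamini-Hochberg over 6 tests); the rule and the held-out measures were checked on simulated reads. Poisson and binomial intervals cover counting error only. Depth was 1428894 to 4600497 distinct autosomal reads per library. The stretches named were the 10 with the most reads, the 3 widest, the 3 with the highest share of 1 library and the 5 fullest windows of 1 Mb; chr14:39187401-39187800 and the other clusters were chosen after their values were seen. The stretches, lists and tests were chosen with earlier results of these data known. Alternatives changed the minimum, the offset limit, the shift, the bin start, the counting of copies, merging, the window of the offset, the reference and the libraries.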

Additional observations from a re-analysis of the deposited data

Results flagged for a closer look

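Among 49 sets of 5 library values examined, 5 had a library set apart by a gap that chance gives in about 1 of 20 sets. Of these, 4 concerned reads per position in replicate 5, the library with the lowest share of distinct reads. It had 10.6 reads per position in low-offset bins against 5.97 to 6.92 in the other libraries, 4.99 in offset bins against 1.62 to 1.89, and 4.72 outside dense bins against 1.05 to 1.72. Its log2 ratio of low-offset to offset bins was 1.09 against 1.78 to 1.94. The part of amplification in these values was not tested.

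The fifth was the density at chr8:124013801-124015000, which was 909 times the autosomal mean in replicate 3 and 2.18 to 41.8 times in the other libraries. What filled this stretch in replicate 3 was not tested.

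The same rule applied to the sex chromosomes, which no comparison used, gave 155 stretches on chromosome X and 123 on chromosome Y. Of the dense bins, 236 of 296 on X (79.7%) and 188 of 227 on Y (82.8%) had a low offset, against 33.3% on the autosomes. No control library was analysed here.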

How the results depend on the processing

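The number of stretches followed the limits of the rule. It was 1271 with a minimum of 10 reads, 301 with 20, 397 with an offset limit of 20 bp and 46930 when all reads were counted as deposited, and it stayed within 1.5 times 709 in 11 other settings, among them each library left out in turn (564 to 860). The share of dense bins with a low offset was 28.9% and 53.1% with a minimum of 10 and 20 reads, 16.9% and 45.8% with limits of 20 and 60 bp, 22.9% with all reads, and 26.3% to 43.4% without 1 library, the lowest without replicate 3 and the highest without replicate 5. The log2 difference in held-out density between low-offset stretches and offset bins turned negative with a limit of 20 bp (-0.94, p = 0.0625, exact), without the 10 stretches with the most reads (-0.16) and against offset bins over 10 kb from a low-offset bin (-0.52); the last 2 settings were chosen after seeing the data, and the cause was not tested. The other 5 tested results kept their direction in all 12 to 15 settings run for each, but the log2 ratio of reads per position between low-offset and offset bins fell from 1.71 to 0.42 and the held-out log2 fold of low-offset stretches over flanks from 2.23 to 1.33 with a limit of 20 bp, and that of offset bins rose from 2.00 to 2.76 over 10 kb from a low-offset bin. None could pass 0.05 with 5 libraries, nor with 4, so the p-values say nothing about stability. The share of replicate 3 among the reads of low-offset stretches, 1.10 times its share of all reads, was 1.005 times without the chromosome 8 stretch, a setting also added later. There is 1 group, so no replicate block between groups applied, and the tests compared both classes of bins within each library.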
